A study of Mus musculus with 12 samples.

Results

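The genes described here are 10 mouse genes of lipid droplets and triglyceride storage: Plin2, Plin4, Plin5, Cidea, Cideb, Cidec, Mogat1, Dgat1, Dgat2 and Cd36. They were taken by gene symbol from the deposited expression tables, and all 10 were found among 22252 entries for liver, 22252 for gonadal white adipose tissue (WAT) and 22273 for gastrocnemius muscle. The study asked how glucocorticoid receptor (GR) signalling in muscle bears on the obesity that chronic corticosterone (CORT) produces. RNA was sequenced from male C57BL/6J mice of 2 genotypes: GRf/f, in which exon 3 of the GR gene Nr3c1 is floxed, and GRmKO, which carries the same floxed allele together with a Cre transgene driven by the Acta1 promoter and so loses GR in myofibres. From 8 weeks of age the mice drank either CORT (100 µg/mL in 1% ethanol) or 1% ethanol alone (vehicle) for 4 weeks. Each of the 12 libraries, 1 per tissue, genotype and treatment, was made from RNA pooled from 3 mice, so there was no replicate library, and neither an SD nor a p-value can be given. Only myofibres were meant to lose the receptor, and the whole mouse received CORT in both genotypes.

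A lipid droplet is a core of triglyceride and sterol ester under a single phospholipid layer, and it is the store of fat in adipocytes and the site of fat accumulation in a steatotic liver. Perilipins (the Plin genes) coat the droplet and set the access of lipases to it, and the CIDE proteins (Cidea, Cideb, Cidec) sit at contacts between droplets and promote transfer of lipid from small to large ones. Triglyceride itself is made by acylation of diacylglycerol by DGAT1 or DGAT2, with MGAT1 (Mogat1) supplying diacylglycerol from monoacylglycerol, and CD36 is a membrane protein that takes up long-chain fatty acids.

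The library totals lay between 19394572 and 20940660 expected counts, and a count of 3, taken as the floor for a library at 0, corresponded to 0.143 to 0.155 CPM (expected counts per 1000000 of the library total). In gastrocnemius, Nr3c1 stood at 113 CPM in GRf/f vehicle, 90.4 in GRf/f CORT, 46.4 in GRmKO vehicle and 35.5 in GRmKO CORT, lower in both GRmKO libraries, while in liver it lay between 45.2 and 60.8 and in WAT between 111 and 158. These values count the whole transcript and not the floxed exon alone. Marker genes were checked against the tissue labels. In liver the summed CPM of 9 hepatocyte markers lay between 88863 and 150214. The 10 adipocyte markers summed to between 862 and 3631 CPM there. Among them Car3 stood at 483 to 3134 and Thrsp at 226 to 736, whereas Adipoq, Lep, Adig and Retn stayed at or below 0.193 CPM. In WAT the 10 adipocyte markers summed to between 45157 and 64987 CPM, and in gastrocnemius the 10 myofibre markers summed to between 109581 and 149487 CPM.

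The tables give each gene as 1 transcript, the one kept by the authors for that tissue, and this matters for several of the genes. For 8 of the 10 genes liver and WAT carried the same transcript, and the exceptions were Plin5 and Cidec. Plin5 (chromosome 17, 56111601 to 56117596, minus strand, GRCm38) was represented in liver by ENSMUST00000113072 and in WAT and gastrocnemius by ENSMUST00000019808. Their starts lie 298 bases apart and they share the start codon, so they differ in the leader before it: the WAT and muscle form has 9 exons and the liver form 8. Of the 1956 sequences of 31 bases in either form, 99 (5.06%) were found in no other coding transcript of Plin5. Cidec (chromosome 6, 113424634 to 113435760, minus strand) was represented in liver by ENSMUST00000032416 and elsewhere by ENSMUST00000113089, whose starts are 4 bases apart, with 1.37% and 2.37% of their 31-base sequences their own. The Plin4 transcripts of liver and WAT on the one hand and of gastrocnemius on the other start 1 base apart, and 6 of their 9 exons have identical bounds. The former has 0 and the latter 1 31-base sequence of its own.

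**Figure D1:**
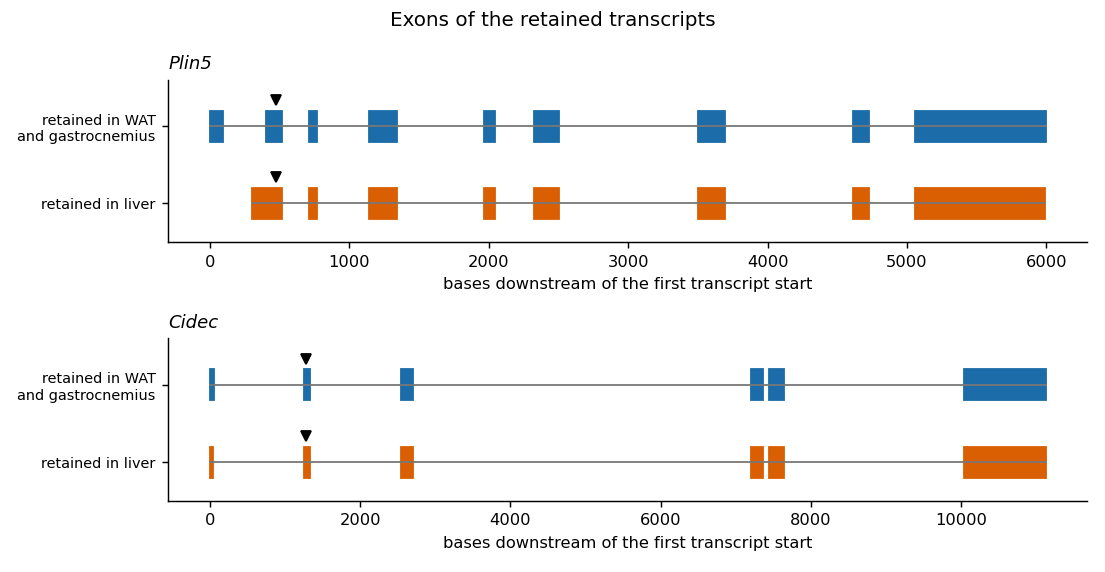
Exons (boxes) of the Plin5 and Cidec transcripts carried in each tissue, by distance in bases from the first transcript start of the gene, with the start codon marked by a triangle. The Plin5 forms differ before the start codon, with starts 298 bases apart, and the Cidec starts are 4 bases apart.

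Reads that fit several transcripts are divided between them by the quantifier, so a retained transcript can receive none of a gene's reads in 1 library and most of them in another. Among entries averaging at least 1 CPM in liver, 336 of 7825 genes with 2 or more coding transcripts (4.29%) were listed at 0 in at least 1 library, against 13 of 2946 genes with 1 coding transcript (0.441%). In WAT these shares were 3.32% and 0.495%, and in gastrocnemius 4.18% and 0.611%. A value of 0 fell on Cidec in GRf/f vehicle liver, on Plin5 in GRmKO vehicle WAT and on Cidec in GRmKO vehicle gastrocnemius. Below these are written as listed at 0, and how far the division of reads set them was not tested. Cidea, Cideb and Dgat1 have 1 coding transcript each, and the retained form holds 60.4% sequence of its own for Plin2 and 87.8% for Dgat2. For Cd36 that share was 1.1% and for Mogat1 0.174%.

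Because liver and WAT carry different Plin5 forms, the RefSeq promoter windows (GRCm38.p6, 250 bases before to 50 after a start) are shown for both starts, followed by those of Cidec and Plin2. RefSeq windows were matched for 7 of the 10 genes. Each sequence is written 5′ to 3′ on the gene's own strand, which is the minus strand for all 4 windows, and capitals mark AGGTCA, a core motif of nuclear receptors such as the PPARs, and the CCAAT box, each in either orientation.
Plin5 upstream start (chr17:56117499-56117798): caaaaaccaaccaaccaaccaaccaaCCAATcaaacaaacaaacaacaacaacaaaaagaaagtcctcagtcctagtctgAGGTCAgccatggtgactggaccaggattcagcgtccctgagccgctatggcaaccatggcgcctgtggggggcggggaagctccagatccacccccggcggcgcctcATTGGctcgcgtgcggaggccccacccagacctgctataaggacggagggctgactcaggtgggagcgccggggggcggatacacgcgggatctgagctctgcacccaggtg
Plin5 downstream start (chr17:56117249-56117548): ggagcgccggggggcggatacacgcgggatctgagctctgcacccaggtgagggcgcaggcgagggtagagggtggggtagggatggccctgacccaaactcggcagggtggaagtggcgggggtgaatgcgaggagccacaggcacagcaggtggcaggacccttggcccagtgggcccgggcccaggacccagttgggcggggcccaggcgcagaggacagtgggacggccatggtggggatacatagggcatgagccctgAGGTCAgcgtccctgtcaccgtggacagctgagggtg
Cidec (chr6:113435711-113436010): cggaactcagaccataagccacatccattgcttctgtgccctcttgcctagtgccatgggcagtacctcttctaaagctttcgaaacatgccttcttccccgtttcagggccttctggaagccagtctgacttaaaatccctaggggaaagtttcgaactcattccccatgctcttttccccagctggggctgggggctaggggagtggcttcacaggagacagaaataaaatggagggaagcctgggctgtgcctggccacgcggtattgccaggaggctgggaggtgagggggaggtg
Plin2 (chr4:86670010-86670309): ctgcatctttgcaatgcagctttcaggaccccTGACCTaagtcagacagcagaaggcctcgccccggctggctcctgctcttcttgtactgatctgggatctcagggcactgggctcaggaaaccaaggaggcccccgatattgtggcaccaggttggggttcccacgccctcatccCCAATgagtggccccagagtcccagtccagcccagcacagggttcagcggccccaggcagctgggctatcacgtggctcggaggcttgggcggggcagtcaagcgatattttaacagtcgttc

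The Plin5 upstream window held AGGTCA at -170 and CCAAT at -224 and, in reverse, at -62, counted in bases from its start, which lies 48 bases inside that of the transcript carried in WAT. The downstream window, whose start coincides with that of the liver form, held AGGTCA at position 13 after the start and no CCAAT. The Plin2 window held AGGTCA in reverse at -218 and CCAAT at -73, and the Cidec window held neither motif. These motifs are common: AGGTCA occurred in 16.3% and CCAAT in 37.4% of the 32851 windows searched. AGAACA, an arm of the palindrome that GR recognises, was searched on both strands too and was found in 19% of all windows and in none of the 4 shown. Among the 9 windows of these genes only that of Cideb held it, in reverse, at -224 and -213. No match says only that these letters are not in these windows.

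In what follows a gene is called higher or lower where log2(CPM + 0.5) differed by at least 1 between the libraries and the 95% exact interval of the ratio excluded 1. The intervals given beside log2 changes are those of the plain CPM ratio, without the 0.5. They cover counting error only, and leave out both the variation from mouse to mouse and the division of reads between transcripts. Genes had to average at least 1 CPM over the tissue's 4 libraries. Fewer cells of a type and less RNA per cell cannot be told apart in these bulk samples.

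In liver with CORT, Plin5 and Cd36 rose in both genotypes and Plin4 in GRf/f, while Plin2, Cideb, Dgat1 and Dgat2 were not called in either genotype. Cidec was called higher in both as well, but in GRf/f against a library listed at 0, and in GRmKO at the 2-fold limit. The GRmKO call was lost under TMM scaling and median-of-ratios scaling. NOISeq could not call Cidec in liver, as it leaves out any gene with a library at 0. In GRf/f 4 of the 10 genes were called higher and 0 lower, with 2 (Cidea and Mogat1) under the filter. Of all genes tested 13.8% were called in that comparison, 6.87% higher and 6.89% lower. In GRmKO 3 were higher and 0 lower, against 7.72% of all genes, 3.95% higher and 3.77% lower. The median log2 change of the 8 genes that passed was 1.03 in GRf/f and 0.82 in GRmKO, beside 0.01 and 0.06 over all genes tested. It rests in part on Cidec, which in GRf/f starts from a library listed at 0. With Cidec left out, the middle gene was Plin2 at 0.48 in GRf/f and Plin4 at 0.70 in GRmKO. NOISeq, the method of the study for unreplicated libraries, called Plin5 and Cd36 in both genotypes and no other storage gene, against 5.1% of genes in GRf/f and 2.19% in GRmKO.

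Plin5, a perilipin of fat-oxidising tissues that ties droplets to mitochondria, changed most among the genes measured above 0 in every liver library. Its CPM in liver was 11.5 in GRf/f vehicle, 64.1 in GRf/f CORT, 11.8 in GRmKO vehicle and 37.3 in GRmKO CORT. Both CORT libraries stood above both vehicle libraries, which were nearly equal. The log2 change was 2.43 in GRf/f (interval 2.28 to 2.68) and 1.62 in GRmKO (1.45 to 1.88). Under CORT the GRmKO value was 0.582 times that of GRf/f (0.532 to 0.637), short of the 2-fold limit.

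Cd36 (chromosome 5, 17781690 to 17888801, minus strand) followed the same order. Its liver CPM was 17.9 in GRf/f vehicle, 74.7 in GRf/f CORT, 19.8 in GRmKO vehicle and 46.5 in GRmKO CORT. The log2 change was 2.03 in GRf/f (1.90 to 2.23) and 1.21 in GRmKO (1.06 to 1.4), and under CORT GRmKO was at 0.622 times GRf/f (0.573 to 0.675). For both genes the counting interval of the difference between the genotypes' responses excluded 0, as it did for 45.2% of the 11667 liver genes with more than 3 counts in every library. The difference was -0.81 log2 units for Plin5 (-1.1 to -0.53) and -0.83 for Cd36 (-1.07 to -0.60), GRmKO minus GRf/f.

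Plin2, the ubiquitous perilipin that follows the amount of stored lipid, moved less. Plin2 (chromosome 4, 86648386 to 86670060, minus strand) stood in liver at 192 CPM in GRf/f vehicle, 268 in GRf/f CORT, 140.1 in GRmKO vehicle and 270.0 in GRmKO CORT. The CORT libraries were level with each other and the vehicle libraries were not, so that the log2 change was 0.48 in GRf/f (0.42 to 0.54) and 0.94 in GRmKO (0.88 to 1.01), neither at the 2-fold limit. The response differed by 0.47 log2 units (0.38 to 0.55), larger in GRmKO.

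Plin4 (chromosome 17, 56100591 to 56109803, minus strand), a perilipin of adipocytes and muscle, was scarce in liver. Its CPM was 1.67 in GRf/f vehicle, 6.00 in GRf/f CORT, 3.98 in GRmKO vehicle and 6.76 in GRmKO CORT. The log2 change with CORT was 1.58 in GRf/f (1.29 to 2.43), a call, and 0.70 in GRmKO (0.36 to 1.18), which was not. Under vehicle Plin4 was higher in GRmKO than in GRf/f by 1.04 log2 units (0.66 to 1.86).

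Cidec, the CIDE protein of large adipocyte droplets that also marks steatotic liver, was listed at 0 in GRf/f vehicle liver. It stood at 2.0 CPM in GRf/f CORT, 0.898 in GRmKO vehicle and 2.30 in GRmKO CORT, so that it passed the filter through the other libraries. Against the floor of 3 counts in that library, GRf/f CORT was at least 14-fold higher and GRmKO vehicle at least 6.27-fold higher. The comparison free of a 0, CORT against vehicle in GRmKO, gave a ratio of 2.56 (1.45 to 4.53) and a log2 change of 1.00, at the limit. The values above 0 rest on few counts.
Cideb (chromosome 14, 55754050 to 55758458, minus strand), the CIDE protein of hepatocytes that takes part in loading of very low density lipoprotein, was abundant and flat. Its CPM was 205 in GRf/f vehicle, 214 in GRf/f CORT, 192 in GRmKO vehicle and 220.4 in GRmKO CORT, and its log2 change was 0.07 (0.00 to 0.13) in GRf/f and 0.20 (0.14 to 0.26) in GRmKO. Cidea, normally a protein of brown and white adipocytes, did not exceed 0.193 CPM in any liver library, or 4 counts.

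The enzymes of triglyceride synthesis showed no call in liver. Dgat2 (chromosome 7, 99153658 to 99182719, minus strand), the acyltransferase that handles newly made fatty acids, stood at 529.2 CPM in GRf/f vehicle, 449 in GRf/f CORT, 569.6 in GRmKO vehicle and 511 in GRmKO CORT. Its log2 change was -0.24 (-0.28 to -0.20) in GRf/f and -0.16 (-0.19 to -0.12) in GRmKO. Dgat1 (chromosome 15, 76502015 to 76511953, minus strand), which re-esterifies imported fatty acids, stood between 13.4 and 16.1 CPM, and its intervals with CORT spanned 0 in both genotypes. Mogat1 (chromosome 1, 78510991 to 78538173, plus strand) did not exceed 0.764 CPM in liver and no change was detectable at this depth, with a ratio of 0.448 (0.156 to 1.15) in GRf/f and 1.33 (0.514 to 3.57) in GRmKO.

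Between genotypes, 2 of the 10 genes (Plin4 and Cidec) were called higher in GRmKO liver under vehicle, against 4.21% of all genes, 2.17% higher and 2.04% lower. Under CORT 0 were called, against 6.65%, 3.52% higher and 3.13% lower. NOISeq called 0 of the 10 in either comparison, against 0.577% and 1.43% of genes. Markers of other cells also moved in these libraries. Of 10 macrophage markers, 8 passed the filter and 7 fell with CORT in GRf/f and 2 in GRmKO. Their summed CPM was 263 in GRf/f vehicle, 72.0 in GRf/f CORT, 212 in GRmKO vehicle and 115 in GRmKO CORT, the reverse of the order of Cd36. Their part in the values of Cd36 and Plin5 was not tested. Of 10 adipocyte markers 4 passed the filter, and 1 rose and 2 fell with CORT in GRf/f and 1 fell in GRmKO. The sums of the list were 3382, 2046, 3631 and 862. Within them Car3, which hepatocytes make too, stood at 3134, 1296, 2916 and 483 CPM, and Thrsp at 226, 736, 697 and 360. The adipocyte-defining Adipoq reached 0.193 CPM and Plin1 0.269, and the brown adipocyte genes Ucp1, Dio2 and Cox8b were at 0 in all 4 liver libraries.

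**Figure D2:**
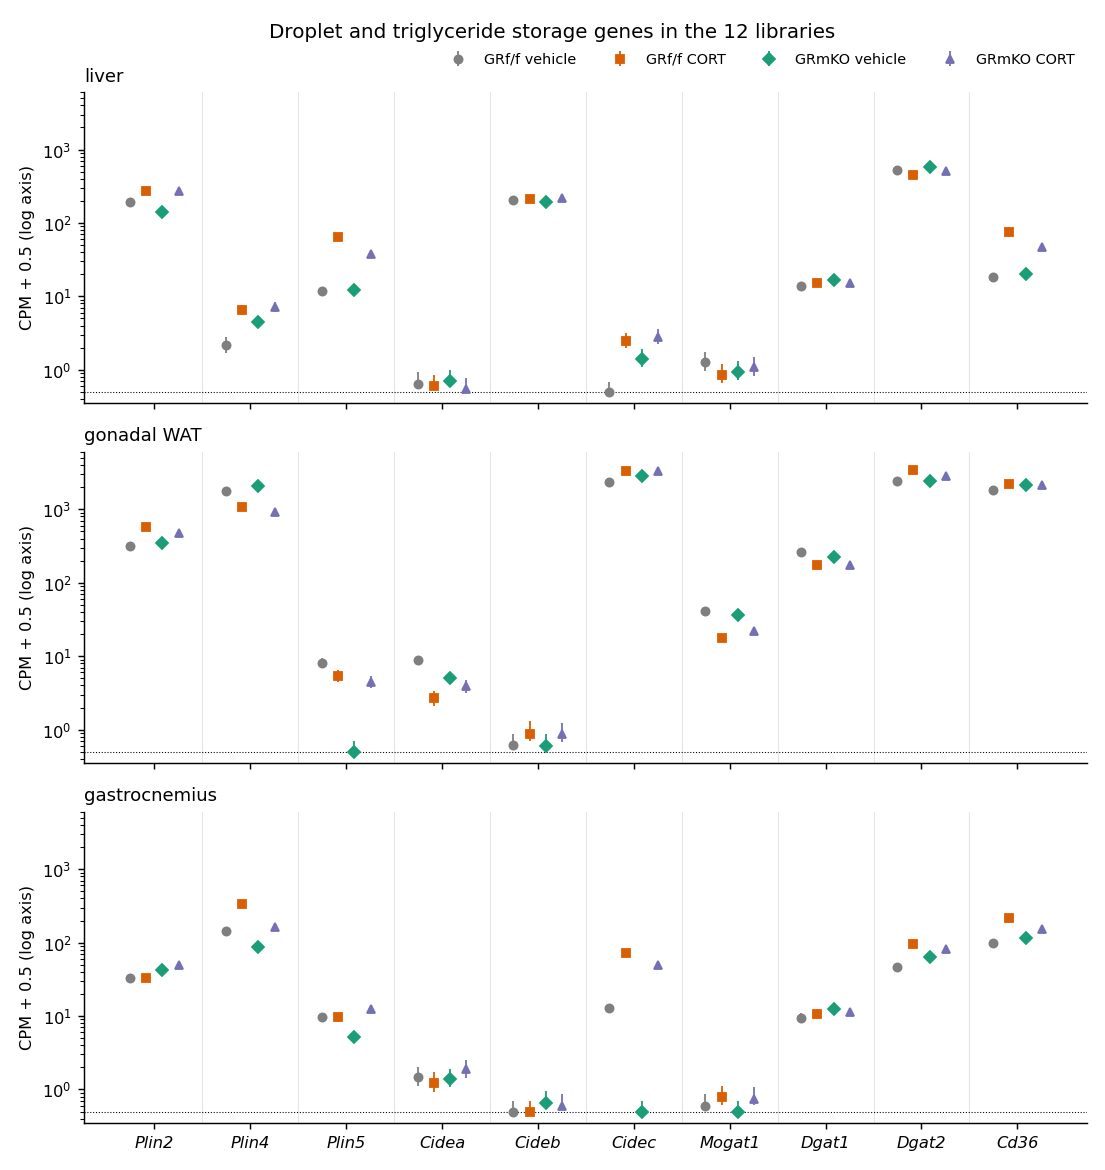
CPM + 0.5 on a log axis for the 10 genes in the 4 libraries of liver, gonadal WAT and gastrocnemius, 1 point per library, with bars for the 95% Wilson counting interval and a dotted line at 0 CPM. In liver both CORT libraries stand above both vehicle libraries for Plin5 and Cd36, and 3 points outside the lowest genes lie on the dotted line: Cidec in GRf/f vehicle liver, Plin5 in GRmKO vehicle WAT and Cidec in GRmKO vehicle gastrocnemius.

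In gonadal WAT the same genes moved in both directions. The log2 changes with CORT of Plin2, Cidec, Dgat2 and Cd36 were above 0 and under the 2-fold limit, and those of Plin4, Mogat1, Dgat1 and Cidea below 0. In GRf/f 0 of the 10 genes were called higher and 2 lower (Cidea and Mogat1), against 15.4% of all genes, 6.4% higher and 8.96% lower. In GRmKO 1 was higher (Plin5) and 1 lower (Plin4), against 10.7%, 4.17% higher and 6.52% lower. NOISeq called Mogat1 in GRf/f and Plin4 in GRmKO, against 7.62% and 4.42% of genes. Cideb was under the filter. The median log2 change of the 9 that passed was -0.58 in GRf/f and 0.03 in GRmKO, beside -0.06 and -0.13 over all genes. The contrast rests on Plin5, which is the GRf/f median and in GRmKO starts from a library listed at 0. With Plin5 left out, the middle genes were Dgat1 and Cd36, at -0.60 and 0.26 in GRf/f and -0.32 and 0.03 in GRmKO.

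Plin2 stood in WAT at 316 CPM in GRf/f vehicle, 570.1 in GRf/f CORT, 346 in GRmKO vehicle and 480.5 in GRmKO CORT. Both CORT libraries were above both vehicle libraries, and the log2 change was 0.85 in GRf/f (0.81 to 0.90) and 0.47 in GRmKO (0.43 to 0.52). Plin4 went the other way in WAT, at 1778, 1083, 2085 and 931 CPM in the same order of libraries. Its log2 change was -0.71 in GRf/f (-0.74 to -0.69) and -1.16 in GRmKO (-1.19 to -1.14), and only the latter passed the limit. Plin1, the main perilipin of white adipocytes and no member of the list, stood at 2402, 1559, 2356 and 1626 CPM, with no call.

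Plin5 was scarce in WAT. It stood at 7.57 CPM in GRf/f vehicle, 4.89 in GRf/f CORT, was listed at 0 in GRmKO vehicle and stood at 3.94 in GRmKO CORT. The ratio with CORT in GRf/f was 0.646 (0.494 to 0.836), without a call. Against the floor, GRmKO CORT was at least 26.0-fold higher than GRmKO vehicle and GRf/f vehicle at least 49.8-fold higher, and each of the calls rests on that 1 value. Under CORT, where neither library was at 0, the ratio of GRmKO to GRf/f was 0.807 (0.597 to 1.1).

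The CIDE genes of WAT went opposite ways. Cidec stood in WAT at 2388 CPM in GRf/f vehicle, 3308 in GRf/f CORT, 2854 in GRmKO vehicle and 3315 in GRmKO CORT. The log2 change was 0.47 in GRf/f (0.45 to 0.49) and 0.22 in GRmKO (0.20 to 0.23). The CORT libraries were level. Cidea stood at 8.27, 2.16, 4.56 and 3.37 CPM in that order and fell in GRf/f by 1.72 on the log2 scale (interval -2.46 to -1.45), while in GRmKO the change was -0.39 (-0.91 to 0.03). The responses differed by 1.5 log2 units (0.84 to 2.17). Cidea is shared with brown adipocytes, and of 8 brown adipocyte markers 5 passed the filter in WAT, with 1 higher and 1 lower with CORT in GRf/f and 1 higher in GRmKO. Cox8b, 1 of the 5, stood at 19.5, 4.20, 8.64 and 5.03 CPM, in the same order as Cidea. The marker called higher with CORT in GRf/f moved against Cidea, Ucp1 did not exceed 0.0501 CPM and Zic1 was at 0 throughout. The summed CPM of the brown list was 281, 257, 202 and 227, which is not the order of Cidea. The part of brown adipocytes in the Cidea values was not tested.

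The synthesis genes of WAT moved apart. Dgat2 stood at 2464 CPM in GRf/f vehicle, 3423 in GRf/f CORT, 2443 in GRmKO vehicle and 2874 in GRmKO CORT, which gave a log2 change of 0.47 in GRf/f (0.46 to 0.49) and 0.23 in GRmKO (0.22 to 0.25). Dgat1 stood at 262, 172, 221 and 177 CPM, with changes of -0.60 (-0.67 to -0.54) and -0.32 (-0.39 to -0.26). For both genes the GRf/f libraries were the further apart. Mogat1 stood at 40.9, 17, 35.7 and 21.4 CPM and fell in GRf/f by 1.24 on the log2 scale (interval -1.46 to -1.08), while the GRmKO change of -0.72 (-0.91 to -0.56) was under the limit. Cd36 stood at 1844, 2211, 2127 and 2171 CPM, with changes of 0.26 (0.24 to 0.28) and 0.03 (0.01 to 0.05), a much narrower span than in liver.

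Across genotypes in WAT, 1 of the 10 genes was called lower in GRmKO under vehicle (Plin5, through its 0), against 3.5% of all genes, 1.69% higher and 1.81% lower. Under CORT 0 were called, against 4.12%, 2.13% higher and 1.99% lower. NOISeq called 0 in both, against 0.774% and 0.682% of genes. The counting interval of the difference between the responses excluded 0 for 8 of the 8 storage genes with a value in WAT, against 48.2% of all WAT genes with more than 3 counts in every library. The change with CORT was the smaller in GRmKO for 7 of them, with Plin4 the exception, and for 66.4% of all WAT genes whose interval excluded 0. In liver the interval excluded 0 for 6 of 8 genes, against 45.2% of all liver genes with more than 3 counts in every library. Of the 6, 4 had the smaller change in GRmKO (Plin4, Plin5, Dgat2 and Cd36) and 2 the larger (Plin2 and Cideb). The smaller change was in GRmKO for 66.6% of all liver genes whose interval excluded 0. Under TMM and median-of-ratios scaling the intervals of Dgat2 and Cideb in liver included 0 and that of Dgat1 excluded it. In gastrocnemius it excluded 0 for 5 of 7 genes, 3 of them with the smaller change in GRmKO, against 47.3% of all muscle genes, of which 61.8% had the smaller change in GRmKO. These intervals narrow as counts rise. Each is a contrast of 4 pools, and the interval says nothing of the spread between mice.

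Other cell types moved with CORT in WAT. Of 10 macrophage markers 6 rose and 1 (Cd74) fell in GRf/f, and 2 rose and 1 fell in GRmKO, with a summed CPM of 1649 in GRf/f vehicle, 2461 in GRf/f CORT, 2031 in GRmKO vehicle and 2477 in GRmKO CORT. Of 8 endothelial markers 7 fell in GRf/f and 2 in GRmKO, with sums of 806, 290, 739 and 391. Of 10 adipocyte markers 2 rose and 1 fell in GRf/f and 1 rose and 1 fell in GRmKO, with sums of 61272, 45157, 64987 and 50172. None of 8 fibroblast markers was called with CORT in either genotype, with sums of 2711, 3203, 2682 and 3295, nor any of the 4 epididymis and mesothelium markers that passed. The part of these in the values of Plin2, Cd36 and the other storage genes was not tested.

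**Figure D3:**
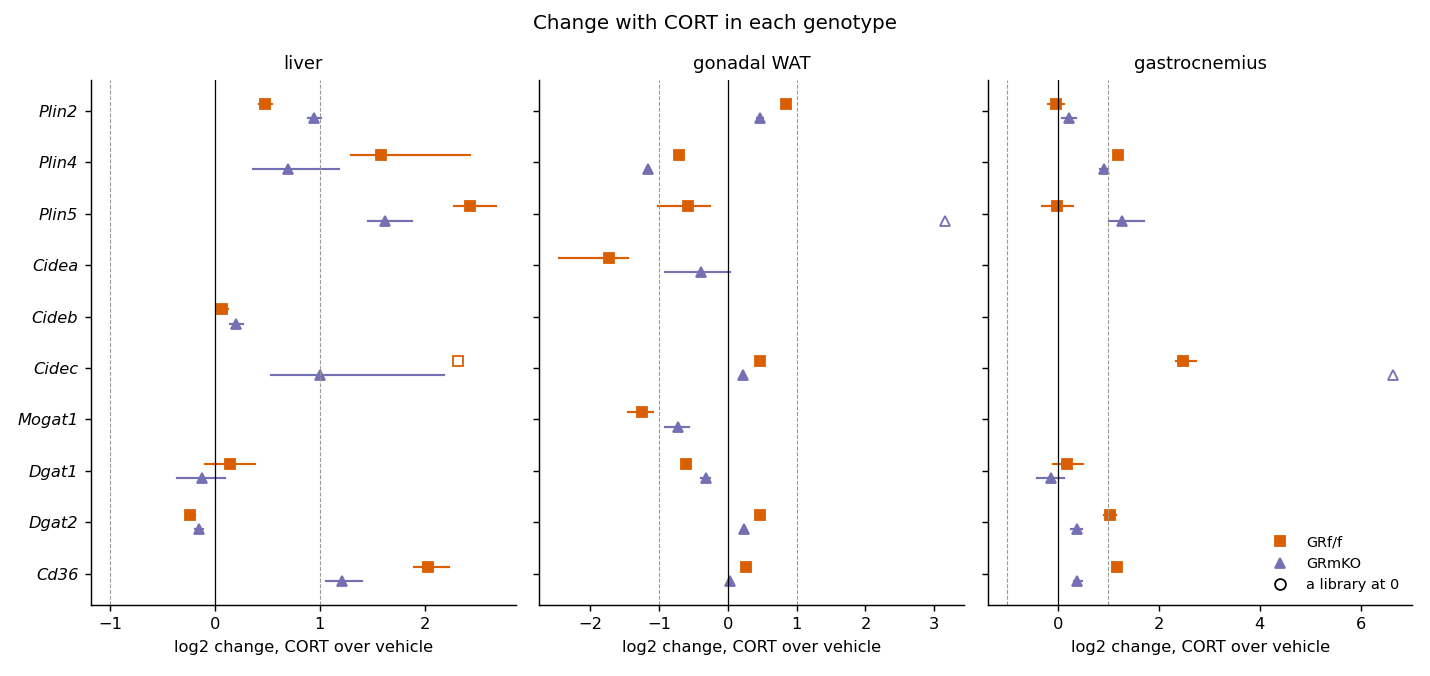
Log2 change of CPM + 0.5 from vehicle to CORT in GRf/f (squares) and GRmKO (triangles) for the genes that passed the filter, with 95% counting intervals, dashed lines at the 2-fold limit and a separate scale for each tissue. Open symbols mark changes from a library listed at 0, which depend on the 0.5 CPM added. In liver Plin5 changed by 2.43 in GRf/f and 1.62 in GRmKO, and in WAT the largest change from a value above 0 was that of Cidea in GRf/f, at -1.72.

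In gastrocnemius 7 of the 10 genes passed the filter. Cidea, at up to 1.38 CPM, Mogat1, at up to 0.281, and Cideb, at up to 0.153, did not. With CORT 4 were called higher in GRf/f (Plin4, Cidec, Dgat2 and Cd36) and 0 lower, against 10.1% of all genes, 4.15% higher and 5.91% lower. In GRmKO 2 were higher (Plin5 and Cidec) and 0 lower, against 8.22%, 2.25% higher and 5.97% lower. NOISeq called Plin4, Dgat2 and Cd36 in GRf/f and 0 in GRmKO, against 3.44% and 2% of genes. The median log2 change of the 7 was 1.03 in GRf/f and 0.39 in GRmKO, beside -0.09 and -0.09 over all genes. Cidec is among the 7 and in GRmKO starts from a library listed at 0. With Cidec left out, the middle genes were Dgat1 at 0.19 and Dgat2 at 1.03 in GRf/f, and Dgat2 at 0.37 and Cd36 at 0.39 in GRmKO.

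Plin4 stood in gastrocnemius at 145.5 CPM in GRf/f vehicle, 332 in GRf/f CORT, 86.5 in GRmKO vehicle and 163 in GRmKO CORT. The log2 change with CORT was 1.19 in GRf/f (1.13 to 1.26) and 0.91 in GRmKO (0.83 to 1.00). At each treatment GRmKO was the lower, with a log2 difference of -0.75 under vehicle (-0.84 to -0.66) and, past the limit, of -1.02 under CORT (-1.09 to -0.96). That was the only call among the 10 genes between genotypes under CORT, against 11.5% of all genes, 5.51% higher and 6% lower, and NOISeq called it as well, against 3.82%.
Plin2 in gastrocnemius stood at 32.9, 32.2, 41.9 and 48.8 CPM, with changes of -0.03 (-0.19 to 0.13) and 0.22 (0.09 to 0.35). Plin5 stood at 9.15, 9.06, 4.68 and 12 CPM, flat in GRf/f with a change of -0.01 (-0.32 to 0.30) and higher with CORT in GRmKO by 1.27 (1.01 to 1.71). Its GRmKO vehicle library was the low one.

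Cidec stood in gastrocnemius at 12.5 CPM in GRf/f vehicle and 72.8 in GRf/f CORT, a log2 change of 2.49 (2.34 to 2.74), the largest of the 10 genes between libraries above 0. It was listed at 0 in GRmKO vehicle and stood at 49.3 CPM in GRmKO CORT, at least 330.1-fold above the floor of the former. The value of 0 was also the 1 call between genotypes under vehicle, against 9.7% of all genes, 5.73% higher and 3.98% lower, with GRf/f at least 84.0-fold higher. NOISeq, which leaves out genes with a 0, called 0 storage genes there, against 3.3%.
Dgat2 stood at 45.7, 93.8, 63.5 and 82.4 CPM, with log2 changes of 1.03 (0.92 to 1.16) and 0.37 (0.27 to 0.48). Cd36 stood at 96.9, 218, 116 and 152 CPM, with changes of 1.16 (1.09 to 1.25) and 0.39 (0.32 to 0.47). For both genes the GRf/f CORT library was the highest and the GRf/f vehicle library the lowest. Dgat1 stayed between 8.96 and 11.9 CPM, with both CORT intervals spanning 0.

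Adipocyte markers rose in the same muscle libraries. Of 10, 6 rose and 1 fell with CORT in GRf/f and 4 rose in GRmKO. Adipoq stood at 14.6, 63.0, 16.8 and 48.2 CPM and Plin1 at 13.6, 42.5, 14.5 and 29.7, whereas the summed CPM of the list, 2993, 2275, 5193 and 4864, followed Car3, which muscle makes itself. Relative to WAT of the same genotype and treatment, Adipoq in muscle was at 0.386%, 3.12%, 0.388% and 1.82%, and the median of the 10 markers at 1.02%, 2.81%, 0.99% and 2.35%. Cidec, with the same transcript in both tissues, was at 0.526% and 2.20% in GRf/f, 0% in GRmKO vehicle and 1.49% in GRmKO CORT. Dgat2 was at 1.85%, 2.74%, 2.60% and 2.87%, and Cd36 at 5.26%, 9.85%, 5.45% and 7.01%. Plin2 was at 10.4%, 5.65%, 12.1% and 10.2%, above all 10 markers in GRf/f vehicle and above all but Car3 in GRmKO vehicle and GRmKO CORT, while in GRf/f CORT it lay below Car3 at 8.44% and Cfd at 5.91%. How much of the muscle Cidec, Dgat2, Plin4 and Cd36 came from adipocytes was not tested.

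Markers of other cell types moved in the muscle libraries too. All 9 hepatocyte markers were called higher in GRmKO than in GRf/f at both treatments, with a summed CPM of 6.81 in GRf/f vehicle, 9.50 in GRf/f CORT, 88.2 in GRmKO vehicle and 291 in GRmKO CORT, and the highest was at 0.438% of its liver level. Cideb, the hepatocyte member, did not exceed 0.153 CPM there. Of 10 macrophage markers 9 were higher in GRmKO than in GRf/f under vehicle and 10 fell with CORT in GRmKO, with sums of 255, 157, 755 and 216. Of 8 fibroblast and preadipocyte markers 4 fell with CORT in GRf/f and 5 in GRmKO, with sums of 1621, 621, 2474 and 880, and 2 were higher in GRmKO under vehicle. None of 8 endothelial markers was called with CORT. The part of these cell types in the muscle values was not tested.

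**Figure D4:**
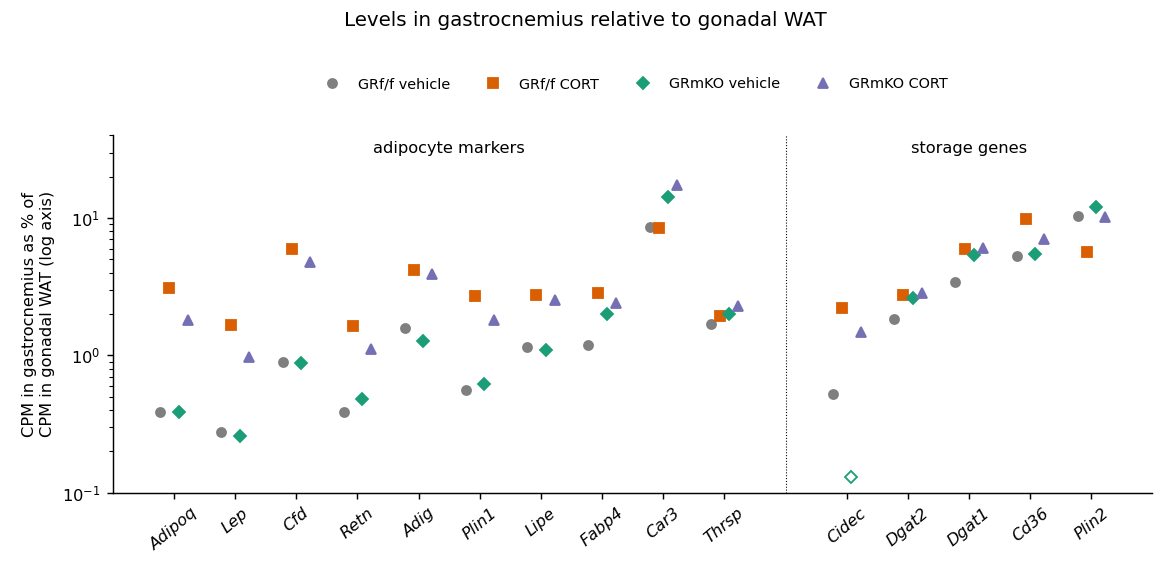
CPM in gastrocnemius as a percentage of CPM in gonadal WAT of the same genotype and treatment, on a log axis, for 10 adipocyte markers (left) and 5 storage genes with the same transcript in both tissues (right), 1 point per pair of libraries. The open symbol at the foot stands for 0%, Cidec in GRmKO vehicle. Cidec lies at 0.526% and 2.20% in GRf/f, within the range of the markers.

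To compare genes with each other, levels were divided by transcript length and scaled to the same total in each library. In liver Dgat2 led, with a median per-length level over the 4 libraries of 324, followed by Cideb at 245 and Plin2 at 174, and the ranges of these 3 did not overlap. Plin5 and Cd36 came next at 17.9 each, with overlapping ranges of 7.84 to 47.8 and 9.04 to 41.3, and Dgat1 at 11.5 overlapped both. In WAT Cidec led at 2986, and its range overlapped that of Dgat2 at 1957. Cd36 followed at 1337, then Plin4 at 418 and Plin2 at 364 with overlapping ranges, and Dgat1 at 179.1. In gastrocnemius Cd36 led at 67.9, and each neighbour in the order Dgat2 (43.7), Plin4 (38.6), Plin2 (28.2) and Cidec (25.1) overlapped the next. Among the CIDE genes, Cideb had a median of 245 in liver and at most 0.555 in WAT. Cidec was at most 1.98 in liver and at least 2266 in WAT, but these values are of different Cidec transcripts.

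**Figure D5:**
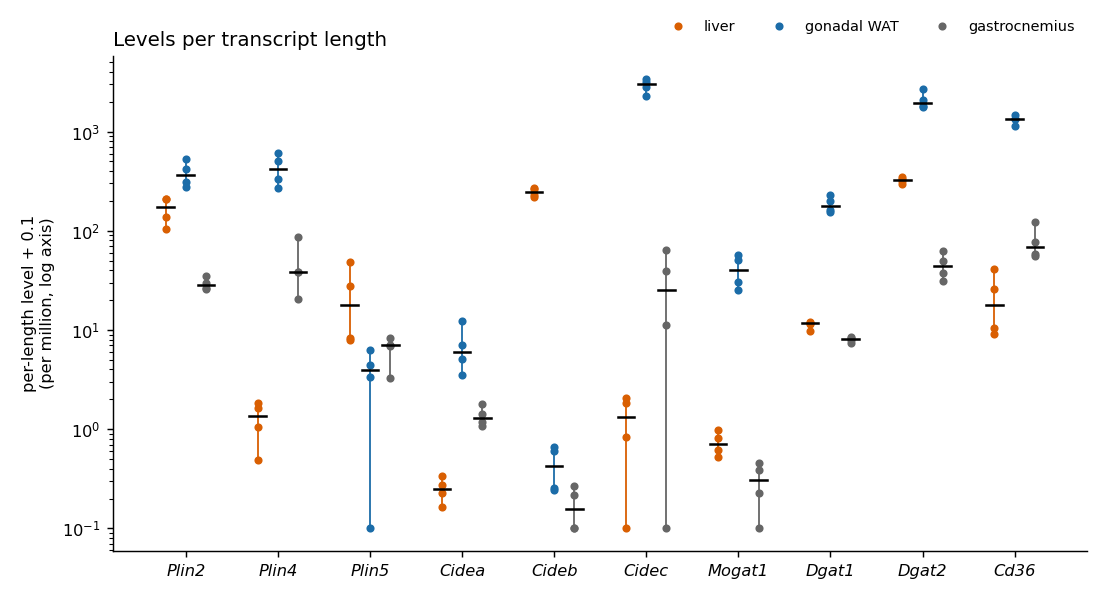
Per-length level plus 0.1 on a log axis for the 10 genes in liver, gonadal WAT and gastrocnemius, with a point for each of the 4 libraries, a line over their range and a bar at their median. For Plin4, Plin5 and Cidec the tissues do not all carry the same transcript. Cidec, Dgat2 and Cd36 lead in WAT at 2986, 1957 and 1337, and Dgat2, Cideb and Plin2 in liver at 324, 245 and 174.

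The other genes of the pathway were taken from lists. Of 20 other droplet proteins, 17 passed the filter in liver. With CORT in GRf/f 1 was higher and 2 were lower, against 6.87% and 6.89% of all genes. The median log2 change of the list was 0.02. G0s2, an inhibitor of the triglyceride lipase ATGL, rose by 1.97 on the log2 scale, with 38.8 CPM under vehicle and 153 under CORT, and Lipe (hormone-sensitive lipase) and Fitm1, which takes part in droplet budding, fell with changes of -1.43 and -1.01. In GRmKO liver only Fitm1 was called, from 29.4 to 10.6 CPM, against 7.72% of all genes called. Under CORT Cavin1, a caveola protein, was higher in GRmKO than in GRf/f liver, at 7.88 against 3.66 CPM. In WAT 0 of 18 were called in GRf/f and 1 in GRmKO, against 15.4% and 10.7% of all genes. The 1 was Pnpla3 (115 to 243 CPM), a lipid hydrolase of droplets.

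Of the 18 other glycerolipid synthesis genes measured, 15 passed in liver. With CORT 3 were higher and 2 lower in GRf/f, against 6.87% and 6.89% of all genes. In GRmKO 1 was higher and 0 lower, against 3.95% and 3.77%. Agpat2, the acyltransferase that makes phosphatidic acid, rose from 139 to 312 CPM and Gpd1, which makes glycerol 3-phosphate, from 313 to 671 in GRf/f liver, and Gpat3 rose from 1.65 to 4.29. Lpin1, a phosphatidic acid phosphatase, fell from 228 to 109. Agpat1 was listed at 0 in GRf/f CORT liver, where the other libraries held between 6.11 and 7.53 CPM, and was called lower with CORT in GRf/f and higher in GRmKO under CORT through that value. Acsl3, which activates fatty acids, was higher in GRmKO under CORT, at 8.94 against 3.85 CPM. In WAT Mogat2, the intestinal relative of Mogat1, rose from 4.61 to 30.9 CPM in GRf/f and from 5.67 to 16.8 in GRmKO, log2 changes of 2.62 and 1.49. Mogat1 moved the opposite way in the same libraries. Gpat3 fell in GRf/f WAT from 150.4 to 52.7 CPM and Lpin1 in GRmKO WAT from 742 to 350.

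Of 17 other genes of fatty acid uptake and binding, 14 passed in liver, and unlike Cd36 those called with CORT were lower. In GRf/f 0 were higher and 5 lower, against 6.87% and 6.89% of all genes. In GRmKO 0 were higher and 4 lower, against 3.95% and 3.77%. Fabp1, the liver fatty acid binding protein, fell from 2757 to 755 CPM in GRf/f and from 2624 to 1155 in GRmKO, and Lpl, the lipase of circulating triglyceride, from 27.7 to 6.92 and from 24.3 to 6.35. Fabp5 fell from 11 to 1.56 and from 5.41 to 1.21, and Cav1, the coat protein of caveolae, from 3.92 to 1.1 and from 3.81 to 1.06. The macrophage markers fell in these libraries as given above, and their part in the values of Fabp5 and Lpl was not tested. Slc27a1, a fatty acid transport protein, was listed at 0 in both GRmKO liver libraries and stood at 5.16 and 4.42 CPM in GRf/f. In WAT 2 of 12 were called lower in GRf/f and 1 in GRmKO, against 8.96% and 6.52% of all genes. Gpihbp1, the capillary anchor of lipoprotein lipase, fell from 177 to 47.2 and from 181 to 85.9, and Slc27a1 from 343 to 132 in GRf/f. The endothelial markers fell in these libraries too, and their part in the Gpihbp1 values was not tested.

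All 12 transcription factors of lipid storage passed the filter. With CORT 2 were higher and 2 lower in GRf/f liver, against 6.87% and 6.89% of all genes, and 0 were called in GRmKO liver, against 7.72%. Mlxipl (ChREBP) rose from 49.9 to 114 CPM and Nr1h2 (LXRβ) from 3.94 to 9.59, and Cebpb and Ppara fell from 167 to 42.5 and from 32.4 to 13. Under CORT, GRmKO liver was lower in Mlxipl than GRf/f liver by a change of -1.02 and higher in Cebpb by 1.04, and under vehicle it was higher in Nr1h2 by 1.88. In WAT Srebf1 fell in both genotypes, from 219 to 52.2 and from 269 to 87.4 CPM. In gastrocnemius with CORT, 4 of 19 other droplet proteins, 2 of 16 glycerolipid genes, 1 of 14 uptake genes and 0 of 12 transcription factors were higher in GRf/f, and 0, 1, 0 and 1 were lower. In GRmKO muscle 2, 2, 1 and 0 were higher and 0, 0, 0 and 1 lower. Of all muscle genes 4.15% were higher and 5.91% lower in GRf/f, and 2.25% and 5.97% in GRmKO.

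Lastly, the storage gene with the largest change of log2(CPM + 0.5) with CORT in GRf/f was taken in liver and in WAT. In liver Plin5 came ahead of Cidec, whose change starts from a library listed at 0 and depends on the 0.5 CPM added. The genes closest in pattern were found by Euclidean distance of centred log2(CPM + 0.5) over the 4 libraries, among genes averaging at least 10 CPM. For Plin5 in liver, the nearest of 6037 were Slc30a10 (15.4, 78.1, 15.7 and 41.7 CPM), Acss3 (15.5, 69.9, 15.8 and 48.3) and Lad1 (8.52, 34.3, 6.93 and 20.7), at distances of 0.205, 0.237 and 0.372. For Cidea in WAT, the nearest of 8710 were S1pr3 (26.9, 8.75, 15.3 and 12.3 CPM), Efna1 (22.1, 6.52, 14.4 and 10.2) and Ddr1 (52.1, 16.6, 34.9 and 24.6), at distances of 0.130, 0.150 and 0.157. With 4 libraries many genes lie close by, and the distances are descriptions.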

How the data were processed

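Each library held RNA pooled by the authors from 3 mice, sequenced on a DNBSEQ-G400 as 100-bp paired-end reads. Per the labels and the study's methods, the authors quantified reads against GENCODE M20 coding transcripts (mm10) using Salmon 1.2.1, imported them into R 3.5.0 with tximport (lengthScaledTPM), and kept 1 transcript per gene name, the one with the largest total. The deposited values are therefore expected counts, scaled for length and not whole numbers, and were rounded only where an exact interval needed whole counts.

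CPM was the expected count over the library total. Transcript starts, exons and lengths were taken from GENCODE M21 on the same build, which held every transcript ID in the tables. Calls and intervals were computed in Python 3.11.15 with scipy 1.17.1, TMM factors with edgeR 4.0.16 in R 4.3.3. With 1 library per group no test between groups was run. The call rule, at least 2-fold with a 95% Clopper-Pearson counting interval excluding 1, was tried on libraries simulated from the GRf/f vehicle liver library. Those held counting error only, so the trial could not cover variation between mice or the division of reads between transcripts. Alternatives were TMM and median-of-ratios scaling, 0.1 CPM added, no filter, and NOISeq (q of 0.9, the authors' settings), which was recoded here and leaves out any gene with a 0 in the tissue. The scaling alternatives for the difference of the responses were chosen after seeing the data. The genes and lists were chosen with earlier results of these data known. All 10 storage genes are named, and from other lists up to 4 genes called in a liver or WAT comparison.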

Additional observations from a re-analysis of the deposited data

Results flagged for a closer look

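Plin5 in gonadal WAT had CORT changes of opposite sign in the 2 genotypes, each with a counting interval that excluded no change. The log2 change was -0.58 in GRf/f and 3.15 in GRmKO. The second value starts from the GRmKO vehicle library, where Plin5 was listed at 0, and the difference between the genotypes was not tested.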

How the results depend on the processing

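No paired analysis was possible because each group is 1 pooled library, and for the same reason no library could be left out. Under TMM scaling, median-of-ratios scaling, 0.1 CPM added and no filter, the number of storage genes called stayed within 1.5 times the main count in all 12 comparisons. Both scalings removed the call of Cidec in GRmKO liver with CORT and added Plin4 in GRmKO gastrocnemius with CORT. NOISeq called fewer of these genes in 9 comparisons, by over 1.5 times in 7. With CORT it called 2 in GRf/f liver, 1 in GRf/f WAT, 1 in GRmKO WAT and 0 in GRmKO gastrocnemius, and between genotypes under vehicle 0 in liver, 0 in WAT and 0 in gastrocnemius. In the other 2, with CORT in GRmKO liver (2 against 3) and GRf/f gastrocnemius (3 against 4), it lost Cidec alone. Cidec in liver and gastrocnemius and Plin5 in WAT were outside it by construction, having a library at 0, and the cause of the other losses was not tested. Of 23 differences between the genotypes' CORT responses, both scalings left 20 on the same side of the interval test, moved 2 liver genes (Cideb and Dgat2) inside it and 1 (liver Dgat1) outside it.

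Over all genes NOISeq called 637 against 1506 in liver with CORT in GRf/f, 274 against 845 in GRmKO, 72 against 461 between genotypes under vehicle and 178 against 728 under CORT. In WAT, in that order, it called 1083 against 1968, 628 against 1370, 110 against 448 and, under CORT, 97 (0.682% of genes against 4.12%), and in gastrocnemius 466 against 1227, 271 against 1002, 447 against 1183 and 518 against 1403. With no filter, 708 genes in place of 448 were called between genotypes in vehicle WAT. Median log2 change over all genes moved by 0.12 under TMM in GRmKO WAT with CORT and by 0.14 in GRmKO gastrocnemius with CORT. The share of calls that were higher moved from 39.0% to 50.2% in the former and from 27.3% to 37.5% in the latter.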
